A study of Homo sapiens with 6 samples.

Results

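Cytosolic ribosomal protein genes were taken as those whose symbol on the array platform is RPL, RPS, RPLP or RPSA with a number and optional letter; protein kinases of the RPS6K family, mitochondrial ribosomal proteins, pseudogenes and antisense transcripts were left out. Of 81 protein-coding genes in RefSeq that carry such a symbol, 56 had a probe set of their own and are the members, out of 19775 genes measured. Another 15 lay only on probe sets annotated to several symbols, mostly together with snoRNAs encoded in their introns (RPL4, RPL5, RPL7A, RPL10, RPL13, RPL13A, RPL17, RPL21, RPL23, RPL28, RPS2, RPS3A, RPS13, RPS20 and RPS26), and no value was given to them by name. The others were not analysed here. Where a member had several probe sets, the one with the highest mean of the 6 arrays stands for it.

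The cytosolic ribosome is built from a large and a small subunit, each an assembly of ribosomal RNA and small basic proteins, and the genes of those proteins are among the most strongly transcribed of any growing cell. Their messages share a pyrimidine tract at the 5′ end, the TOP motif, through which mTOR and the binding protein LARP1 set their translation as a group. Because the proteins are needed in equal numbers, their transcripts usually move together and over a narrow range.

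The study used MDA-MB-231, a standard human cell line from triple-negative breast cancer, at passage 4 and in medium with 10% fetal bovine serum. All clones carried a retroviral pSM2 vector and had been selected with puromycin (1.0 μg/ml for 2 weeks) and grown from individual resistant cells. The knockdown group comprised 3 clones with a short hairpin RNA against WASF3 (either of a pair of hairpins), and the control group 3 clones with the empty vector or a hairpin against GFP. The sources used here do not say which vector a given clone carried. WASF3 encodes a WAVE family protein that turns on ARP2/3-driven actin branching. The design asks which transcripts differ between the groups. Every group is thus a set of 3 clones of 1 parental line with 1 array each. The p-values set the group difference against the spread between clones, in which clone and array differences cannot be told apart. In RNA of a whole culture, fewer cells with a transcript and less of it per cell cannot be told apart.

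The arrays had medians between 5.13 and 5.17 and maxima between 14.7 and 14.8 in log2 RMA signal, and the number of arrays limits the precision. WASF3 itself read 5.40, 5.80 and 4.52 in knockdown clones 1, 2 and 3 and 6.77, 6.42 and 6.59 in control clones 1, 2 and 3. All knockdown clones were below all control clones, and the change was −1.35 (SE 0.29, adjusted p = 0.102) in limma. Without knockdown clone 3, the lowest, it was −0.99 (adjusted p = 0.0175). Markers of the line were bright, with means over the 6 arrays of 14.21 for VIM and 12.64 for AXL. SPARC, also placed among the markers of the line, was low (4.63). Of the luminal genes listed as low in the line, PGR (3.31) and FOXA1 (3.18) were below the array medians. ESR1 (5.81), ERBB2 (7.93) and GATA3 (7.24) were above them. The 5 leukocyte markers measured had means from 3.23 to 5.74. In this comparison 0.738% of genes were called (limma, adjusted p under 0.05 over all probe sets), 0.319% higher and 0.42% lower in the knockdown clones.

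The start sites of a few members are printed because the shared sequence is what makes these genes a transcript family. Sequences are from RefSeq (GRCh38.p14) and run 5′ to 3′ from 15 bases before the annotated start to 15 bases from it onwards. Capitals mark an unbroken run of C and T that opens with C at the start itself and has at least 4 further pyrimidines. The genes shown are 6 of the members with the largest increases, RPS9 and RPLP2 from the other end of the range, RPL39 as the longest tract, and the paralogues RPS27 and RPS27L.

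RPL19 (chr17:39200308-39200337, plus strand): gagcgagctctttcctttcgctgctgcggc
RPL38 (chr17:74203663-74203692, plus strand): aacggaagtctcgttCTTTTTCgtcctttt
RPS25 (chr11:119018329-119018358, minus strand): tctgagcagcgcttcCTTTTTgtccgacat
RPL24 (chr3:101686704-101686733, minus strand): ttcccatgattctctCTTTCTTTTCgccat
RPL27 (chr17:42998404-42998433, plus strand): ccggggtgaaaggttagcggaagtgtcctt
RPS24 (chr10:78033848-78033877, plus strand): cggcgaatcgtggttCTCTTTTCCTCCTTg
RPS9 (chr19:54200843-54200872, plus strand): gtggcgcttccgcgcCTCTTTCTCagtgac
RPLP2 (chr11:809952-809981, plus strand): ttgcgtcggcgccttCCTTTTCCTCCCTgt
RPL39 (chrX:119791616-119791645, minus strand): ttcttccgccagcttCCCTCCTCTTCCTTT
RPS27 (chr1:153990747-153990776, plus strand): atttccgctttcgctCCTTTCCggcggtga
RPS27L (chr15:63157463-63157492, minus strand): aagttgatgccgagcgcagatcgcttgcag

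Of the 48 members with an entry in the promoter table, 34 (70.8%) had such a tract at an annotated start, against 6.24% of 15843 protein-coding genes. The tracts of these members ran from 5 to 19 bases with a median of 8, counting the opening C. RPS27 has one and its paralogue RPS27L does not at its listed start. The start of RPL19 shown lies inside a run of C and T but not on a C with enough pyrimidines after it, and that of RPL27 has no such run. The motif CCGGAAG on either strand, the core bound by ETS family factors such as GABP, was found within 250 bases before and 50 after a start in 18 of the 48 (37.5%) and in 16.5% of the protein-coding genes. A TATAAA on the sense strand within 50 bases before the start was found in 2 of 48 (4.17%) and in 4.49% of the protein-coding genes. These are matches of letters and not shown to be sites. The median change in the knockdown clones was 0.06 for the 34 with a tract and 0.08 for the 14 without, both on the log2 scale.

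No member passed the test of knockdown against control clones (limma over all probe sets, 0 of 56 at adjusted p under 0.05, with 0.738% of all genes called). The smallest adjusted p was 0.188, that of RPL19. Before adjustment, at p below 0.05, 2 members were higher (RPL19 and RPL23A) and 0 lower, or 3.57% of the members higher, against 9.11% of all genes higher and 7.67% lower. This count depended on the fit. It was 7 higher and 0 lower with an intensity trend, and 8 and 1 with each gene's probe sets averaged. With a measure of RNA quality, given below, as a covariate it was 0 and 0. The shares of all genes in these other fits are not given here. All changes lay between −0.17 and 0.28 on the log2 scale, and 19.4% of all genes changed by more than the largest of them. On all 117 single-symbol probe sets of the members, 0 were called, and p before adjustment was below 0.05 for 8 that were higher and 2 that were lower.

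The members nevertheless leaned in the same direction. The mean of the knockdown clones was above that of the control clones in 47 of 56 (83.9%), against 47.6% of all genes. The median change was 0.07 (104.6% of the control signal), against −0.01 over all genes. In 24 members every knockdown clone lay above every control clone, which held for 12.1% of all genes, and in 2 (RPL6 and RPS9) every knockdown clone lay below, against 12.6%. The 24 are 42.9% of the members. These shares were not particular to the members. Of 47 ribosome assembly factors, 20 (42.6%) had all knockdown clones higher, and 83.0% had a higher mean. Of 75 mitochondrial ribosomal proteins, 19 (25.3%) had all knockdown clones higher, and 74.7% had a higher mean. The standard error of a single member's change had a median of 0.08. The control clones were tight, with a median SD of 0.02 over members against 0.07 in the knockdown clones (0.08 and 0.16 over all genes). The fit draws such small spreads towards the value of a typical probe set.

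**Figure D1:**
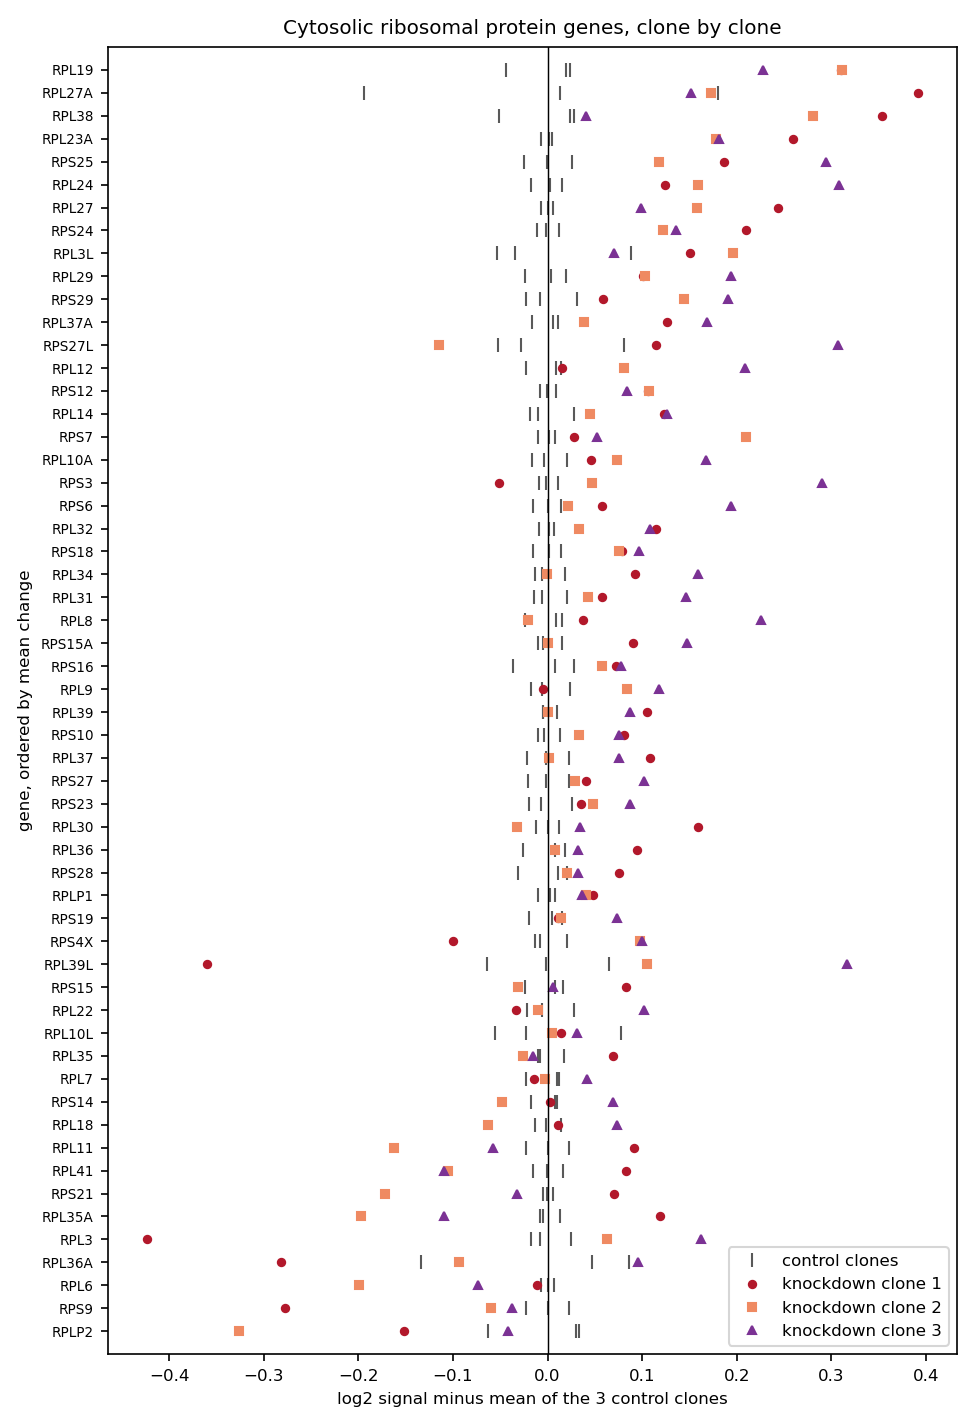
Log2 signal of each of the 56 members in every clone, minus the mean of the 3 control clones (x axis), with genes ordered by mean change (y axis). Ticks are control clones and coloured symbols knockdown clones 1, 2 and 3; most symbols lie to the right of 0, while RPL3, RPL39L and RPL36A spread to both sides.

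By clone, 45, 38 and 48 of the 56 members were above the control mean in knockdown clones 1, 2 and 3, with medians of 0.07, 0.03 and 0.10. The median member level was 14.04, 13.98 and 14.04 in these clones and 13.94, 13.95 and 13.95 in control clones 1, 2 and 3, so the groups did not overlap. Without knockdown clone 3 the median was 0.05 with 39 members higher, and without any other clone it was between 0.06 and 0.08 with 45 to 48 higher. Knockdown clone 3 was the highest of its group for 32 members, clone 1 for 20 and clone 2 for 4. Among the controls, clone 2 was the highest for 45 of 56 and clone 1 the lowest for 39, within their narrow range. With a clone left out, 24 to 34 members had all remaining knockdown clones above all remaining controls, against 14.2% to 21.8% of all genes. The sign of RNA quality taken from the control probe sets, the signal at the 3′ end minus that at the 5′ end of GAPDH and ACTB, also separated the groups. It was 2.11, 1.62 and 1.66 in knockdown and 1.13, 1.47 and 1.26 in control clones (exact permutation p = 0.1, two-sided, the smallest that 3 against 3 allows). With it as a covariate the median member change was 0.05, with 41 of 56 above 0 and −0.03 over all genes. Single members moved in both directions in that fit, all uncalled: RPL27 gave 0.081, RPS24 0.086 and RPL39 0.0054, while RPL6 gave −0.20, RPL41 −0.21, RPL35A −0.27 and RPL39L 0.44. Its part in the lean was not tested beyond that fit.

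The position of the members on the signal scale bears on these values. Their means were above 13 in 48 of 56. Of the 48 genes of the array with a mean above 14, 28 were members. Signals of different probe sets are not comparable as transcript levels, so these values place the members near the upper limit of the scale and no more. The 89 other genes with a mean above 13 had a median change of −0.04, with 35 above 0. All knockdown clones were higher in 10 of them and lower in 32, against 12.1% and 12.6% of all genes. Their median change was opposite in sign to that of the members, a description with no test. The sets were not matched for signal, with a median level of 13.46 for these genes and 13.99 for all 56 members.

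**Figure D2:**
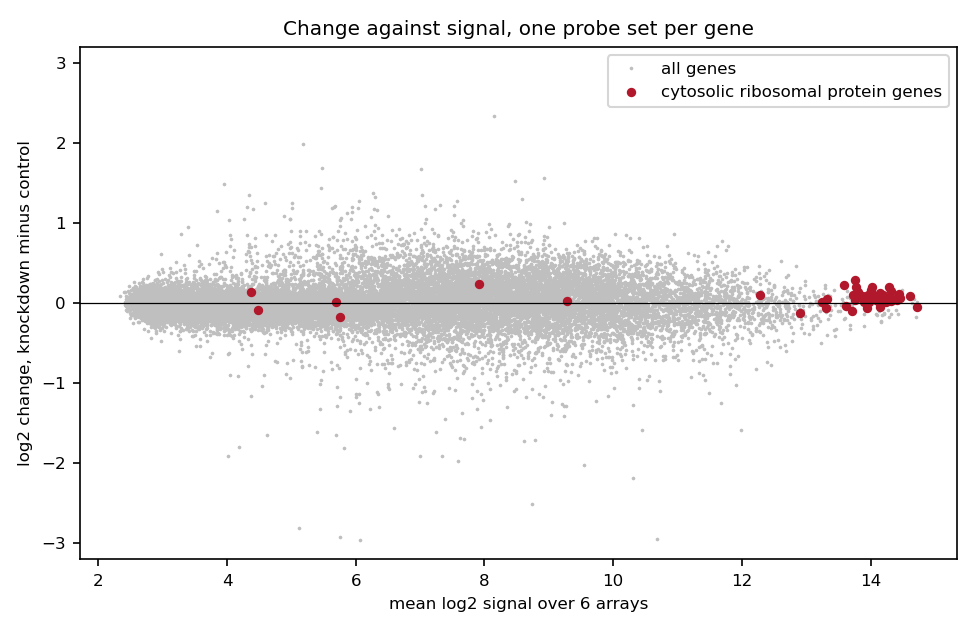
Log2 change in the knockdown clones (y axis) against mean log2 signal over the 6 arrays (x axis) for 19775 genes (grey) and the 56 members (red). The 50 members with a mean above 10 cluster towards the right edge at changes between −0.12 and 0.28. The other 6 lie at a mean of 10 or lower, among them RPLP2 with the lowest change of −0.17.

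Probe sets of these genes can pick up related sequences, since 52 of the 56 have named pseudogenes in RefSeq (up to 95, for RPL23A), and 43 were represented by probe sets whose suffix marks a match to several transcripts. Without such probe sets 34 members remained, with a median of 0.04 and 23 above 0, and RPL19 was again the one with the smallest adjusted p (0.214). The 64 probe sets annotated to several symbols, at least 1 of which meets the name rule, had a median change of 0.05 with 50 above 0 and 0 called. All probe sets of a gene had a common sign in 21 of the 34 members with several.

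Among proteins of the large subunit, 27 of 33 (the stalk apart) had a higher mean, with a median of 0.07. All knockdown clones were higher in 12 (36.4%) and lower in 1, against 12.1% and 12.6% of all genes. RPL19, a protein near the exit of the peptide tunnel, had the largest change of any member. Its signal was 13.92, 13.92 and 13.84 in knockdown clones 1, 2 and 3 and 13.56, 13.63 and 13.63 in control clones 1, 2 and 3. The groups did not overlap, and the change was 0.28 (SE 0.08, adjusted p = 0.188), or 122% of the control signal. It was between 0.23 and 0.31 in 13 other settings, with adjusted p from 0.0976 to 0.563. RPL23A, which forms the docking site for the signal recognition particle at that exit, read 14.45, 14.36 and 14.37 against 14.19, 14.18 and 14.19. It too was higher in each knockdown clone, by 0.21 (SE 0.08, adjusted p = 0.309). RPL24, a protein of the bridge between the subunits, read 14.04, 14.08 and 14.23 against 13.90, 13.94 and 13.92, again without overlap, and differed by 0.20 (SE 0.09, adjusted p = 0.378). Its other probe set gave 0.23.

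RPL38, known from mouse mutants for its role in the translation of Hox messages, read 13.83, 13.75 and 13.51 in knockdown and 13.42, 13.50 and 13.50 in control clones, so knockdown clone 3 lay just above the controls and the other two well above. Its change was 0.23 (SE 0.11, adjusted p = 0.402), and all 3 of its probe sets were higher. With the index of RNA quality in the model it was 0.054 (adjusted p = 0.930). RPL27 read 14.17, 14.08 and 14.02 against 13.93, 13.93 and 13.92 and differed by 0.17 (SE 0.08, adjusted p = 0.435). RPL27A differed by 0.24 with overlapping groups, on a probe set with a mean of 7.91 that stands far below most members.

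The 4 members on chromosome 17 (RPL19, RPL23A, RPL27 and RPL38) were 4 of the 7 with the largest increase, with changes from 0.17 to 0.28. This grouping was noticed after the values were seen. The 1126 measured genes of chromosome 17 had a median change of 0.10, with 67.7% above 0, the highest median among the chromosomes that hold a member. Without these 4, the other 52 members had a median of 0.06, with 43 above 0. All knockdown clones were higher in 20 of them, against 12.1% of all genes. On chromosome 12, where all genes had a median of −0.06, RPL6 and RPL41 were both at the lower end, and RPL3 on chromosome 22 (all genes −0.06) was as well. On chromosome 3 (all genes −0.06) 5 of 6 members had a higher mean, and on chromosome 19 (all genes −0.04) 6 of 7.

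Of the large subunit proteins with lower means, RPL6 read 13.75, 13.56 and 13.68 in knockdown and 13.75, 13.76 and 13.76 in control clones. The difference of −0.09 (SE 0.09, adjusted p = 0.697) came without overlap, though knockdown clone 1 lay barely below the lowest control. RPL3, which lies close to the peptidyl transferase centre, read 12.92, 13.40 and 13.50 against 13.32, 13.33 and 13.37. Knockdown clone 1 was far below the controls and the other two above them, so its mean change of −0.07 (SE 0.15, adjusted p = 0.895) describes no clone. RPL35A (−0.06), RPL41 (−0.04) and RPL11 (−0.04) were above the controls in clone 1 and below them in clones 2 and 3. RPL36A (−0.09) was represented by a probe set with a mean of 4.48, below the array median, and is not shown to be above background.

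Of 8 proteins listed for the ring around the peptide exit tunnel, 6 were measured (RPL19, RPL22, RPL23A, RPL31, RPL35 and RPL39). All 6 had a higher mean, with a median of 0.07. All knockdown clones were higher in 3 (50%), against 42.9% of all members and 12.1% of all genes. RPL31 showed how far probe sets of a member can differ. Its brightest read 0.08 higher in the knockdown clones (adjusted p = 0.720). A dimmer probe set with a mean of 8.23 read 8.48, 8.97 and 8.54 in knockdown and 7.74, 7.84 and 7.79 in control clones, or 0.88 higher (SE 0.14, adjusted p = 0.0520). The groups are far apart on this probe set, and it just missed the threshold. The remaining one, with a mean of 8.45, ranged from 7.67 to 9.75 among knockdown clones and gave −0.06. RPL31 was singled out after its values were seen.

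Among proteins of the small subunit, 19 of 21 had a higher mean, with a median of 0.07. All knockdown clones were higher in 11 (52.4%) and lower in 1, against 12.1% and 12.6% of all genes. RPS25, needed for initiation at several internal ribosome entry sites, read 13.85, 13.78 and 13.96 in knockdown and 13.67, 13.69 and 13.64 in control clones, a difference of 0.20 (SE 0.09, adjusted p = 0.366) without overlap. RPS24, mutated in some patients with Diamond-Blackfan anaemia, read 14.45, 14.36 and 14.37 against 14.24, 14.25 and 14.23, also apart, with 0.16 (SE 0.08, adjusted p = 0.451). Its second probe set, mean 8.24, gave 0.76 (SE 0.24, adjusted p = 0.225), with 9.19 in knockdown clone 3 the highest. For RPS23, a protein of the decoding centre singled out after its values were seen, the bright probe set gave 0.06 and another, with a mean of 8.10, −0.49 (SE 0.12, adjusted p = 0.133).

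RPS18, RPS10 and RPL41 were the brightest members, near the array maxima of 14.7 to 14.8, where narrow groups do not show that a transcript is steady. RPS18 read 14.65, 14.64 and 14.67 in knockdown and 14.55, 14.58 and 14.57 in control clones and differed by 0.08 (SE 0.08, adjusted p = 0.702). RPS10 read 14.50, 14.45 and 14.49 against 14.41, 14.43 and 14.41, a difference of 0.06 (SE 0.08, adjusted p = 0.784). The groups did not overlap for either. RPL41, the smallest ribosomal protein, gave −0.04 (SE 0.09, adjusted p = 0.880) and did overlap. At the other end, RPS9 read 12.69, 12.91 and 12.93 against 12.94, 12.97 and 12.99, with knockdown clone 1 well below and the other two just below the controls, and differed by −0.12 (SE 0.10, adjusted p = 0.631). All 3 of its probe sets were lower. RPS21 differed by −0.04 with overlapping groups.

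Of the other small subunit members, RPS29, RPS12, RPS6, RPS7, RPS16 and RPS23 had all knockdown clones above all control clones. RPS29, another Diamond-Blackfan anaemia gene, read 14.14, 14.23 and 14.27 against 14.07, 14.11 and 14.06 and differed by 0.13. RPS6, the substrate of the S6 kinases downstream of mTOR, read 13.88, 13.85 and 14.02 against 13.81, 13.84 and 13.82 and differed by 0.09. Clone 3 stood highest for both. RPS3, which lines the mRNA entry channel, read 13.69, 13.79 and 14.04 against 13.74, 13.76 and 13.74; knockdown clone 1 lay below the controls and the other two above. RPS3, RPS4X, RPS15, RPS15A, RPS19 and RPS28 had overlapping groups and changes from 0.02 to 0.10. In the large subunit RPL10A, RPL12, RPL14, RPL29, RPL32 and RPL37A were higher in every knockdown clone, by 0.09 to 0.13. RPL7, RPL8, RPL9, RPL18, RPL30, RPL34, RPL36 and RPL37 overlapped, with changes from 0.01 to 0.08. These are values of the representing probe sets. On a dimmer probe set RPL37A gave 0.50 (mean 6.44), RPL37 0.34 (mean 6.95) and RPL18 −0.29 (mean 6.38). None of these was called, and they were singled out after their values were seen.

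The stalk, which recruits elongation factors to the large subunit, was covered by RPLP1 and RPLP2. RPLP1 read 14.28, 14.28 and 14.27 in knockdown and 14.24, 14.24 and 14.23 in control clones, apart by 0.04 (SE 0.08, adjusted p = 0.864). RPLP2 had a mean of 5.75 on the probe set that represents it, near the array median, with a change of −0.17 (SE 0.10, adjusted p = 0.510) and overlapping groups. Its other single-symbol probe set gave 0.17 at a mean of 3.69.

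Ribosomal proteins that bind MDM2 and so link ribosome assembly to p53 had 4 measured members of 6, and 3 had a higher mean. They were RPS7 (0.10), RPS27L (0.10) and RPS14 (0.01), while RPL11 gave −0.04. Of 19 genes mutated in Diamond-Blackfan anaemia 14 were measured. Their median change was 0.06, 12 had a higher mean and all knockdown clones were higher in 7 (50%, against 42.9% of all members and 12.1% of all genes). Neither list had a called gene in limma, and on the representing probe sets no member of either had p below 0.05 before adjustment. On other probe sets p was below 0.05 before adjustment for RPL31, RPS24 and RPS27L, which were higher, and for RPL18, which was lower. None of these was called.

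Paralogues were followed against their parent genes. RPS27L, a p53-inducible copy of RPS27, read 12.35, 12.12 and 12.54 in knockdown and 12.18, 12.32 and 12.21 in control clones. Knockdown clone 2 was below all controls and clones 1 and 3 above them, and the difference of 0.10 (SE 0.12, adjusted p = 0.772) is within that spread. On a dimmer probe set, with a mean of 8.42, RPS27L read 8.69, 8.37 and 8.67 against 8.20, 8.30 and 8.29. The groups did not overlap there, with a difference of 0.31 (SE 0.11, adjusted p = 0.267 in limma). Its remaining probe set, with a mean of 7.05, gave −0.05. RPS27 read 14.27, 14.26 and 14.34 against 14.23, 14.26 and 14.21, a difference of 0.06 (SE 0.08, adjusted p = 0.811) without overlap, though knockdown clone 2 and control clone 2 nearly met. RPL39L, a copy of RPL39 known from testis and tumours, varied most of all members among the knockdown clones, at 8.91, 9.37 and 9.58, with 9.20, 9.27 and 9.33 in the controls and a difference of 0.02. RPL39 read 14.12, 14.02 and 14.11 against 14.01, 14.03 and 14.01 and differed by 0.06. The muscle form RPL3L (mean 4.37) and the testis form RPL10L (mean 5.69) lay below or near the array median and gave 0.14 and 0.02.

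The paralogues that fall outside the name rule were all higher in the knockdown clones. RPL7L1 read 12.97, 13.22 and 13.04 in knockdown and 12.66, 12.59 and 12.59 in control clones. RPL22L1 read 12.60, 12.40 and 12.57 against 12.23, 12.28 and 12.20. RPL36AL read 13.11, 13.18 and 13.05 against 12.80, 12.89 and 12.82. In all 3 the groups were well apart, with differences of 0.47 (SE 0.10, adjusted p = 0.0921), 0.29 (SE 0.09, adjusted p = 0.224) and 0.28 (SE 0.08, adjusted p = 0.203). RPL26L1 read 11.53, 11.19 and 11.30 against 11.05, 11.14 and 11.15, apart by a narrow gap, with 0.22 (SE 0.11, adjusted p = 0.422). So all 4 had every knockdown clone above every control clone, as did 12.1% of all genes. Their median was 0.28, and 0 were called in limma. Before adjustment 3 were higher and 0 lower with p below 0.05, against 9.11% of all genes higher and 7.67% lower. With the index of RNA quality in the model the median of these paralogues was 0.21, with 3 of 4 higher. In that fit 1 had p below 0.05 before adjustment and 0 were called. RPL7L1 passed the threshold in 1 of its 12 other settings, without knockdown clone 3 (0.49, adjusted p = 0.0470). RPL22 itself gave 0.02 on its brightest of 5 probe sets. FAU, which encodes a ribosomal protein of the small subunit fused to a ubiquitin-like domain, gave 0.01.

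**Figure D3:**
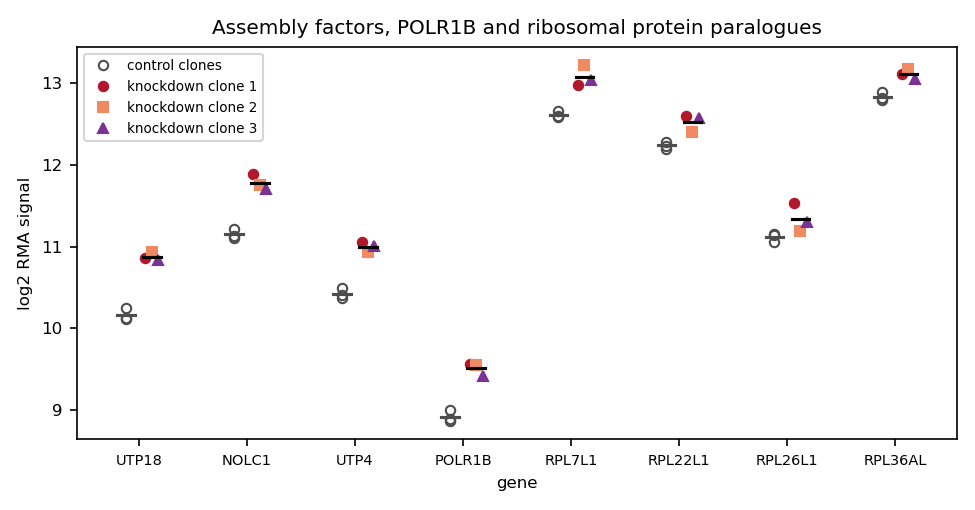
Log2 RMA signal (y axis) in each clone for 3 ribosome assembly factors, POLR1B and the 4 paralogues outside the name rule (x axis); open circles are control clones, coloured symbols knockdown clones and bars group means (n = 3). In each gene the 3 knockdown clones lie above the 3 control clones.

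Genes that build ribosomes, read beside the proteins they assemble, included called ones. Of 47 measured assembly factors, 3 rose and 0 fell in limma, with 0.319% of all genes called higher and 0.42% lower. Before adjustment 15 were higher and 0 lower with p below 0.05 (31.9%, with 9.11% of all genes higher). A higher mean was seen in 39. UTP18, a subunit of the small-subunit processome, read 10.86, 10.93 and 10.84 in knockdown and 10.12, 10.12 and 10.25 in control clones and rose by 0.71 (SE 0.09, adjusted p = 0.0317), to 164% of the control signal. NOLC1, a nucleolar chaperone of snoRNA particles, read 11.89, 11.75 and 11.71 against 11.10, 11.14 and 11.22 and rose by 0.63 (SE 0.09, adjusted p = 0.0434). UTP4, another processome subunit, read 11.05, 10.94 and 11.01 against 10.41, 10.37 and 10.49 and rose by 0.57 (SE 0.09, adjusted p = 0.0463). The knockdown clones were close to each other and far from the controls in all 3. UTP18 is on chromosome 17, where the median of all genes was 0.10. With the mean of its probe sets UTP18 gave 0.51 (adjusted p = 0.0517). Dropping probe sets that match several transcripts left 37 assembly factors with 1 called, NOLC1, and UTP4 at an adjusted p of 0.0502. An intensity trend left 2 called, UTP18 and NOLC1.

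The median change of the assembly list was 0.17, with 0.18, 0.24 and 0.06 in knockdown clones 1, 2 and 3. With the index of RNA quality in the model it was 0.12, with 0 called and 12 higher with p below 0.05 before adjustment. No assembly factor was called without knockdown clone 2 or without any one of the control clones, with medians from 0.14 to 0.17, and 5 and 7 were called without knockdown clone 1 or 3. Of the 14 genes of RNA polymerase I and its factors, 1 rose and 0 fell, with 0.319% of all genes called higher. POLR1B, its second largest subunit, read 9.57, 9.56 and 9.42 in knockdown and 8.86, 8.89 and 9.00 in control clones and rose by 0.60 (SE 0.09, adjusted p = 0.0480). It was not called with the mean of its probe sets (0.28, adjusted p = 0.152) or on the probe set that remains when those with several transcripts are dropped (0.17, adjusted p = 0.553). The list had a median of 0.20, with 12 higher. Before adjustment 5 of them had p below 0.05 (35.7% of the list, with 9.11% of all genes higher). With the index of RNA quality in the model the median was 0.32 and 9 of 14 were higher, 3 with p below 0.05 before adjustment and 0 called. With an intensity trend 0 were called. Without knockdown clone 2 or any control clone 0 were called, and without knockdown clone 3 there were 5.

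Mitochondrial ribosomal proteins, encoded by separate nuclear genes, gave a wider spread. Of 75 measured, 56 had a higher mean, with a median of 0.12 and changes from −0.44 to 0.57. None was called in limma. With p below 0.05 before adjustment 13 were higher (17.3%) and 4 lower, against 9.11% and 7.67% of all genes. MRPS18B differed by 0.50 (SE 0.09, adjusted p = 0.0621), by 0.51 without knockdown clone 3 (adjusted p = 0.0316) and by 0.30 with its probe sets averaged (adjusted p = 0.143). Their medians were 0.14, 0.17 and −0.01 in knockdown clones 1, 2 and 3, so clone 3, where cytosolic members read highest, was the lowest here. With the index of RNA quality in the model the median was 0.06, with 42 higher. Without knockdown clone 3, 5 mitochondrial ribosomal proteins rose and 1 fell, and without knockdown clone 1, 1 rose.

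Translation factors, which use the ribosome, had medians near that of all genes in the fit with group as the only term. Of 29 initiation factors 15 had a higher mean, with a median of 0.02 and 0 called in limma (2 higher and 4 lower with p below 0.05 before adjustment). EIF4G1, the scaffold of the cap-binding complex, read 9.96, 10.30 and 10.24 in knockdown and 10.80, 10.74 and 10.79 in control clones and differed by −0.61 (SE 0.11, adjusted p = 0.0668). With its probe sets averaged it gave −0.26 (adjusted p = 0.190), and with the index of RNA quality in the model −0.34 (adjusted p = 0.412). With knockdown clone 1 left out it fell by 0.51 (adjusted p = 0.0420), and with clone 3 left out by 0.65 (adjusted p = 0.0285). Of 11 elongation factors and other transcripts with TOP motifs 7 had a higher mean, the median was 0.01, and 0 were called or had p below 0.05 before adjustment. The median of this list moved with the setting. With the index of RNA quality in the model it was 0.13 (8 of 11 higher), against 0.05 for the members. Without probe sets matching several transcripts it was 0.14 for the 6 left, against 0.04 for the members. Without knockdown clone 3 it was −0.05, with 3 higher. EEF1D, a subunit of the exchange factor for EEF1A, differed by 0.19 (SE 0.09, adjusted p = 0.416). VIM, in the same list, gave −0.14.

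Of 13 regulators of ribosome synthesis 5 had a higher mean, with a median of −0.01 and 0 called (1 higher and 1 lower with p below 0.05 before adjustment). TSC2, which restrains mTOR, read 7.46, 7.75 and 7.65 in knockdown and 8.14, 8.16 and 8.25 in control clones, without overlap, and differed by −0.57 (SE 0.10, adjusted p = 0.0691). It fell without knockdown clone 3 (−0.58, adjusted p = 0.0354), while it gave −0.02 once probe sets that match several transcripts were dropped. MYC, a transcriptional activator of ribosomal genes and singled out after its values were seen, read 10.46, 10.98 and 11.76 against 11.14, 10.89 and 11.07. The knockdown clones lay on both sides of the controls, and the mean change was 0.03. LARP1 gave 0.08, also named after its value was seen. RPS6KB1, likewise named afterwards, had the largest change of this list and is on chromosome 17, where the median of all genes was 0.10. It read 9.68, 9.64 and 8.99 in knockdown and 8.77, 8.62 and 8.90 in control clones, without overlap. The difference was 0.67 (SE 0.19, adjusted p = 0.180 in limma). Without knockdown clone 3, 1 gene of the list was called higher and 1 lower.

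**Figure D4:**
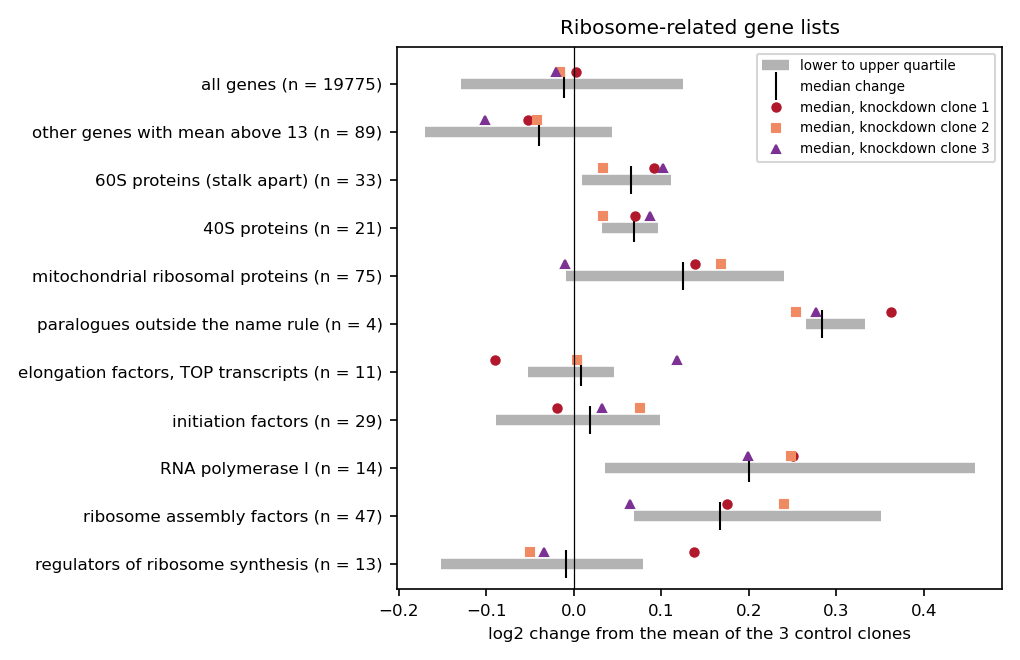
Median log2 change from the mean of the control clones (x axis) for ribosome-related gene lists and for all genes (y axis); black ticks are medians over genes, grey bars the range from the lower to the upper quartile and coloured symbols the medians in knockdown clones 1, 2 and 3. Medians are 0.07 for proteins of either subunit, 0.28 for the 4 paralogues outside the name rule, 0.17 for assembly factors and −0.01 for all genes.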

How the data were processed

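The deposited table holds log2 values that the authors made by RMA (background correction, quantile normalisation and probe set summary), with Expression Console 1.0 from Affymetrix, as the submitters' processing notes list. Labelling began from the polyadenylated end of total RNA, per the labels' protocols. Because arrays are brought to 1 distribution, a general shift in transcript level cannot appear. Scanner files were not analysed here, and the table had 0 columns of other samples.

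Names came from the platform annotation, updated with RefSeq gene identifiers (GRCh38.p14), none from a probe set with several symbols (41091 had 1 symbol, 1801 several and 11721 none, controls apart). Values were fitted with limma 3.58.1 in R 4.3.3 (lmFit, eBayes without trend, group as the only term, 6 arrays). Tests were two-sided and adjusted by Benjamini-Hochberg over 54613 probe sets that are not controls; a gene was called when adjusted p was under 0.05. The fit was tested on simulated data.

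The rule for named genes took the 8 members with the largest change each way, stalk genes, paralogue pairs, the brightest and dimmest 3 members, up to 3 called genes in each companion list or, with none called, that with the smallest p, and WASF3. Other genes are said to be singled out, or are given only as members of a role group. The members and lists were chosen with earlier results of these data known. Alternatives were the mean of a gene's probe sets, no probe sets matching several transcripts, a replicate block, an intensity trend, a mean log2 above 5, median-centred arrays, the index of RNA quality as a covariate and each clone left out. The unnamed probe sets with several symbols and the members with a mean above 10 were added after seeing the data.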

Additional observations from a re-analysis of the deposited data

How the results depend on the processing

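No member was called in any of the 13 planned settings, nor any of the 64 unnamed probe sets with several symbols. The median member change was 0.037 without probe sets matching several transcripts (34 members, some read from a dimmer probe set). It was 0.068 for the 50 members with a mean above 10, and 0.046 to 0.083 with each clone left out. In each of the 13 settings it was above the median of all genes. Genes called in all numbered 146, and 238 with each gene's probe sets averaged, 91 without probe sets matching several transcripts, 63 with an intensity trend, 3 with the replicate block, 1 with the index of RNA quality as a covariate, and 2 to 1225 with each clone left out. The 4 called genes of the companion lists became 6, 2, 2, 0 and 0 in these settings and 0 to 24 with each clone left out. The cause was not tested.

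Same-numbered knockdown and control clones did not deviate together (correlations of −0.046, −0.079 and −0.043 over genes), so the numbers are not read as pairs. With the replicate block RPL19 had an adjusted p of 0.382 in limma.

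Of 36 named genes, 11 changed sign in some setting, 19 times in all, uncalled on either side. Without probe sets matching several transcripts RPLP2 gave 0.17 and RPS27L −0.054. With the index of RNA quality in the model RPL27A gave −0.093, RPS9 0.045, RPL36A 0.052, RPL3 0.35, RPL10L −0.039 and FAU −0.12. With each clone left out the range was −0.19 to 0.0011 for RPL36A, −0.18 to 0.11 for RPL3, −0.15 to 0.0047 for RPL35A, −0.10 to 0.019 for RPS21, −0.0004 to 0.21 for RPS27L, −0.13 to 0.21 for RPL39L, −0.011 to 0.055 for RPL10L and −0.031 to 0.036 for FAU.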
